A study of Mus musculus with 4 samples.

Results

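The genes described are 10 of the 23282 genes in the deposited count table, taken by their symbols: the 4 Id genes (Id1, Id2, Id3 and Id4), the inhibitory Smads Smad6 and Smad7, the ligand gene Bmp4, the receptor genes Bmpr1a and Bmpr2, and Grem1, the gene of a secreted BMP antagonist. They were followed in myotubes of C2C12, a female mouse skeletal muscle line whose myoblasts fuse into multinucleated fibres. All cells had been deprived of steroids. The control group received vehicle, and the treated group received 1 µM dexamethasone, a synthetic ligand of the glucocorticoid receptor, for 2 h. Sequencing was done on RNA retained by the chromatin pellet of lysed nuclei, so that transcripts still being made are enriched, with 2 libraries in each group and 4 in all. No label says that the libraries of a group came from separate cultures, so the p-values measure the spread between these libraries, which may be technical, in 1 cell line.

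Bone morphogenetic proteins (BMPs) are secreted factors that bring type I and type II receptors together on the cell surface. The activated type I receptor phosphorylates Smad1, Smad5 and Smad9, which enter the nucleus with Smad4 and switch on targets, among them the Id genes. Id proteins lack a DNA-binding region and capture the E proteins that the myogenic factors MyoD and myogenin need as partners, and in muscle cells they are known for holding back differentiation. Smad6 and Smad7 are themselves induced by the pathway and shut the receptors down, and gremlin, the product of Grem1, binds BMPs outside the cell, so both act as negative feedback.

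Promoter windows were matched by symbol in a RefSeq table on GRCm38.p6 for 8 of the 10 genes, namely Id2, Id3, Id4, Smad6, Bmp4, Bmpr1a, Bmpr2 and Grem1. The 250 bases before the annotated start are shown for Bmp4 and Grem1, a BMP ligand and a BMP antagonist that were both lower in the dexamethasone libraries. For Id2, the Id gene whose libraries disagreed most, the 89 bases that precede its annotated exon in the window are shown. The windows lie at chr14:46390670-46390919 (minus strand) for Bmp4, chr2:113758649-113758898 (minus strand) for Grem1 and chr12:25096254-25096342 (minus strand) for Id2. These coordinates belong to GRCm38.p6 and not to mm9, the build named for the counts. They read 5′ to 3′ along the gene's strand, and capitals mark GGCGCC, a GC-rich element that BMP-regulated Smads bind, and GTCT or its reverse complement AGAC, the core Smad box.
Bmp4: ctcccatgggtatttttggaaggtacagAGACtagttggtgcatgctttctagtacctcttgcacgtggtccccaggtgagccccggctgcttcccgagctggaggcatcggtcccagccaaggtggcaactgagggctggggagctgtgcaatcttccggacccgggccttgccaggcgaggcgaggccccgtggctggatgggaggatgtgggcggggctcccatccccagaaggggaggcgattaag
Grem1: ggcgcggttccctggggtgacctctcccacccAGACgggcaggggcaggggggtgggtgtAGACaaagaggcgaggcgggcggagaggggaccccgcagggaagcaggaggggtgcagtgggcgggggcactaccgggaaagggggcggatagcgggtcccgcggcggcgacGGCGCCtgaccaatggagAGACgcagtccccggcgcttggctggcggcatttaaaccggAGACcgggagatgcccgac
Id2: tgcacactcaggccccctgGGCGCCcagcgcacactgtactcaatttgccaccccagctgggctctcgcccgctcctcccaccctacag

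All 8 windows were GC-rich, with more than 60% G and C, a content reached by 27.0% of the 32851 windows in the table. The Grem1 window held 1 GGCGCC, 78 to 73 bases before the start, and 4 Smad boxes. The Bmp4 window held 1 Smad box and no GGCGCC. On both strands and with overlaps between motifs allowed, GGCGCC was found in 5 of the 8 windows (Id2, Id4, Bmpr1a, Bmpr2 and Grem1), against 9.59% of all windows of the same length, which are mostly less GC-rich. The Smad box GTCT was found in 5 of 8 (Id2, Id3, Smad6, Bmp4 and Grem1), against 82.9% of all windows. The E-box CANNTG, the site of the bHLH factors that Id proteins restrain, was present in Id2 (1 match) and Bmp4 (3 matches), against 66.2% of all windows. TGACG, the core of the cyclic AMP response element, was present in Id3 and Id4, against 17.8%. The hexamer TGTTCT, the core element of the glucocorticoid receptor, was present in Smad6 and Bmpr2, against 16.1%, and the full receptor palindrome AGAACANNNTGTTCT was in none of the 8 windows and in 3 of 32851. A match describes the letters of the window only, and in Id3 and Bmpr2 the whole window lies inside an exon in the GENCODE M21 annotation. An exon of the gene also covers 161 of the 250 bases in Id2 and 141 in Bmpr1a. The Smad box of Id2, 23 to 20 bases before the start, lies in the part not shown.

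Library totals ran from 19631435 to 88596296 counts, with vehicle replicate 1 the smallest and dexamethasone replicate 2 the largest. Over 13285 tested genes, log2 levels correlated more closely within a replicate number (0.981 and 0.989) than within a group (0.973 and 0.98). These are correlations across genes of 1 pair of libraries, and genes are not replicates. Differences within each number are therefore given beside the pooled ones for the 8 genes that could be tested. The cells responded to the hormone: Fkbp5, a co-chaperone of steroid receptors, was 39.8-fold higher after dexamethasone (edgeR adjusted p 0.0429; limma-voom adjusted p 0.0598). All 7 myotube markers were present in every library, but their summed level was 127671 CPM (a gene's count relative to its library's total, after TMM scaling) in vehicle replicate 1 and 122956 in dexamethasone replicate 1, against 45243 and 44112 in the replicates numbered 2. Most of it was Ttn, the gene of the giant sarcomere protein titin. This split follows the replicate number and not the treatment. Of 4 osteoblast markers, the fate that BMP can impose on this line, Ibsp was at 0 throughout, and the summed level of the list was at most 1.61 CPM. That list leaves out Runx2, a factor of the osteoblast fate that was placed among the BMP targets. Runx2 was abundant, at 370 and 486 CPM with vehicle and 259 and 355 with dexamethasone.

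Of the 10 genes 8 were abundant enough to test, and none of these passed an adjusted p of 0.05 with treatment as the only term of the model. By edgeR's quasi-likelihood test 0 were called, against 0.0376% of all genes tested. At an unadjusted p under 0.05, 2 were lower (Bmp4 and Grem1) and 0 higher, where 1.69% of all genes were lower and 4.09% higher. In models with that term alone, the Wald test of DESeq2, the likelihood ratio test of edgeR and limma-voom also called 0. Over all 13285 genes these 3 tests called, in that order, 236, 243 and 0 higher and 53, 45 and 0 lower. With a further term for the replicate number, which no label ties to a shared day or batch, edgeR called 3 of the 8 lower: Smad7, Bmp4 and Grem1. That fit, with 1 residual degree of freedom, called 768 of all 13285 genes lower and 913 higher. In 4 of the 8 (Smad7, Bmp4, Bmpr2 and Grem1) both dexamethasone libraries lay below both vehicle libraries, which held for 12.9% of all genes, and in Id1 both lay above, which held for 15% of all genes. Scaled by library size alone, Smad7 left that group and Bmpr1a joined it, and under upper quartile scaling and the size factors of DESeq2 it was as with TMM. As these 8 passed a filter on low counts, such counts describe the genes that could be tested and no more. Their median log2 fold change was -0.54, with values from -2.43 to 0.50, beside a median of -0.0016 over all genes. Within replicate number 1 the median of the 8 was -0.95, and within number 2 it was -0.04.

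**Figure D1:**
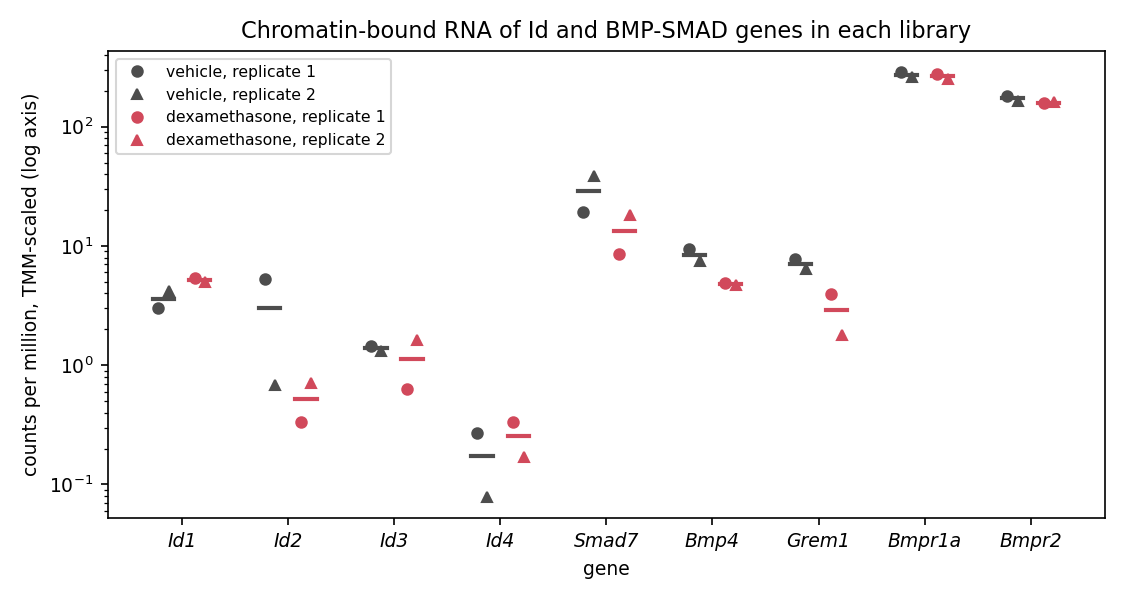
Level of 9 genes in each of the 4 libraries, in TMM-scaled CPM on a log axis; circles and triangles are replicates 1 and 2, grey is vehicle, red is dexamethasone, and bars are group means. Bmp4, Grem1 and Smad7 lie lower in both dexamethasone libraries, Id1 lies higher, and the receptor genes Bmpr1a and Bmpr2 stay within a narrow band.

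**Figure D2:**
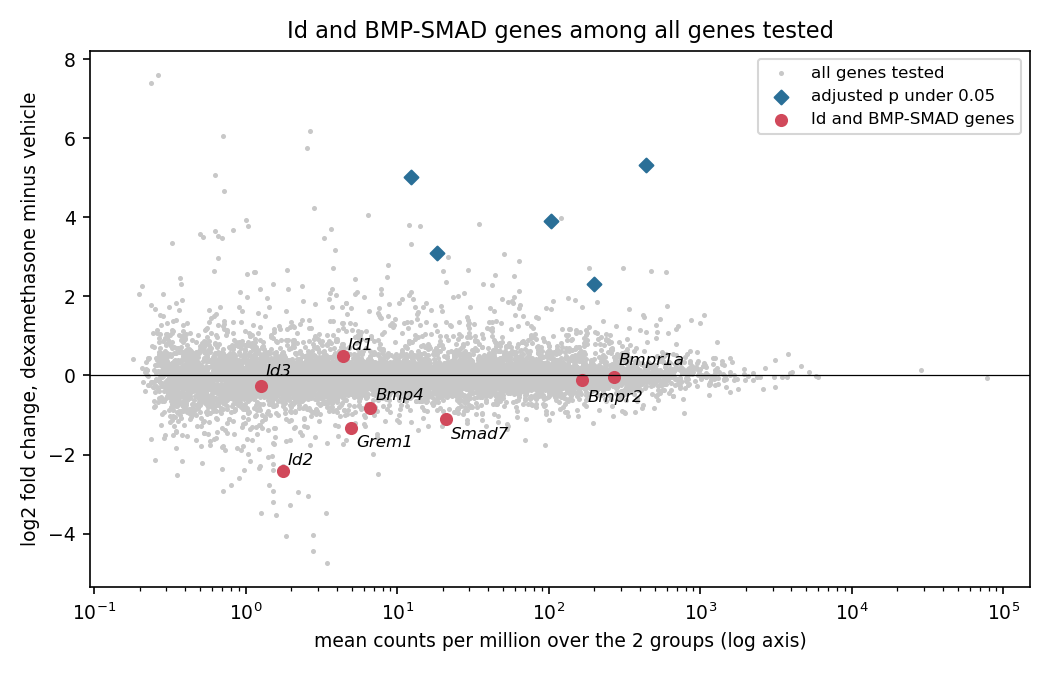
The 8 tested Id and BMP-SMAD genes (red) among all 13285 tested genes (grey), by mean CPM over both groups (log axis) and log2 fold change, dexamethasone minus vehicle; diamonds mark the 5 genes with an adjusted p under 0.05. The 4 genes with log2 fold changes under -0.8 (Bmp4, Smad7, Grem1 and Id2) all lie below 30 CPM, and both receptor genes lie near 0 at higher levels.

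Bmp4 encodes the BMP ligand of the set. Its counts were 175 and 285 with vehicle and 146 and 438 with dexamethasone, which is 9.39 and 7.51 against 4.87 and 4.69 CPM. Both treated libraries lay below both controls and were close to each other. Group means were 8.45 ± 1.33 and 4.78 ± 0.127 CPM (SD, n = 2 each). The fitted level after dexamethasone was 0.567 of that with vehicle (log2 fold change -0.82, SE 0.215). The edgeR unadjusted p was 0.0149 and the adjusted p 0.489. Within replicate number 1 the log2 difference was -0.94, and within number 2 it was -0.67. The opposite-strand gene Gm15217, which overlaps Bmp4 in GENCODE M21, was listed at 0, and the strand setting of the counting is not given in the sources used here. In these bulk libraries, fewer cells that transcribe a gene and less RNA per cell cannot be told apart.

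Grem1, the antagonist gene, had 145 and 242 counts with vehicle and 119 and 168 with dexamethasone, or 7.78 and 6.38 against 3.97 and 1.80 CPM. Again the groups did not overlap, but here the treated libraries differed from each other by 2.21-fold. The means were 7.08 ± 0.991 and 2.88 ± 1.54 CPM (SD, n = 2 each). The fitted log2 fold change was -1.32 (SE 0.443), at an unadjusted p of 0.0351 and an adjusted p of 0.739 by edgeR. Its size rested on dexamethasone replicate 2: without that library the log2 fold change was -0.83, and without dexamethasone replicate 1 it was -1.97. The log2 difference was -0.96 within number 1 and -1.80 within number 2.

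The balance of antagonist to ligand counts does not depend on library scaling. Grem1 stood at 0.829 and 0.849 counts for each Bmp4 count in the vehicle libraries, and at 0.815 and 0.384 in the dexamethasone libraries. Dexamethasone replicate 1 was thus near the controls and dexamethasone replicate 2 stood apart, and the exact permutation p of the log2 ratio was 0.333 (two-sided), the smallest that 2 libraries against 2 can give.

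Smad7, the inhibitory Smad that blocks type I receptors and recruits ubiquitin ligases to them, had 357 and 1461 counts with vehicle and 256 and 1698 with dexamethasone. In CPM these were 19.2 and 38.5 against 8.54 and 18.2. Dexamethasone replicate 2 lay just below vehicle replicate 1, so the groups did not overlap, but scaled by library size alone they did (18.2 and 41.6 against 7.89 and 19.2 CPM). Replicate 2 was about 2 times as high as replicate 1 in each group (2.01-fold with vehicle and 2.13-fold with dexamethasone). The summed myotube markers, mostly Ttn, split by replicate number too, in the other direction. Not every marker did: Mymk stood at 176 and 173 CPM with vehicle and 208 and 208 with dexamethasone. The part of the markers in the Smad7 difference between replicate numbers was not tested. Set against the control of its own number, each treated library was lower by a similar step, with log2 differences of -1.16 and -1.08. The pooled estimate was -1.10 on the log2 scale (SE 0.508), with an edgeR unadjusted p of 0.0872 and an adjusted p of 1.0. Its 95% interval ran from -2.45 to 0.24. Leaving out a library moved it from -0.51 (without vehicle replicate 2) to -1.76 (without dexamethasone replicate 2).

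Smad6, the other inhibitory Smad, was listed at 0 in all 4 libraries, and it was not read as silent. It lies on the minus strand of chromosome 9, in a run of 371 consecutive genes of that strand that are all listed at 0, with 98 of them on one side of it and 272 on the other. On the opposite strand, 376 of the 410 genes within the same stretch (91.7%) had counts. Of the protein-coding genes on the minus strand of chromosome 9, 91.3% had 0 counts in every library, compared with 17.9% on its plus strand. The same run holds Neo1, the gene of the BMP co-receptor neogenin, and Tcf12, the gene of an E protein that Id proteins bind. These 3 genes were treated as not measured.

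**Figure D3:**
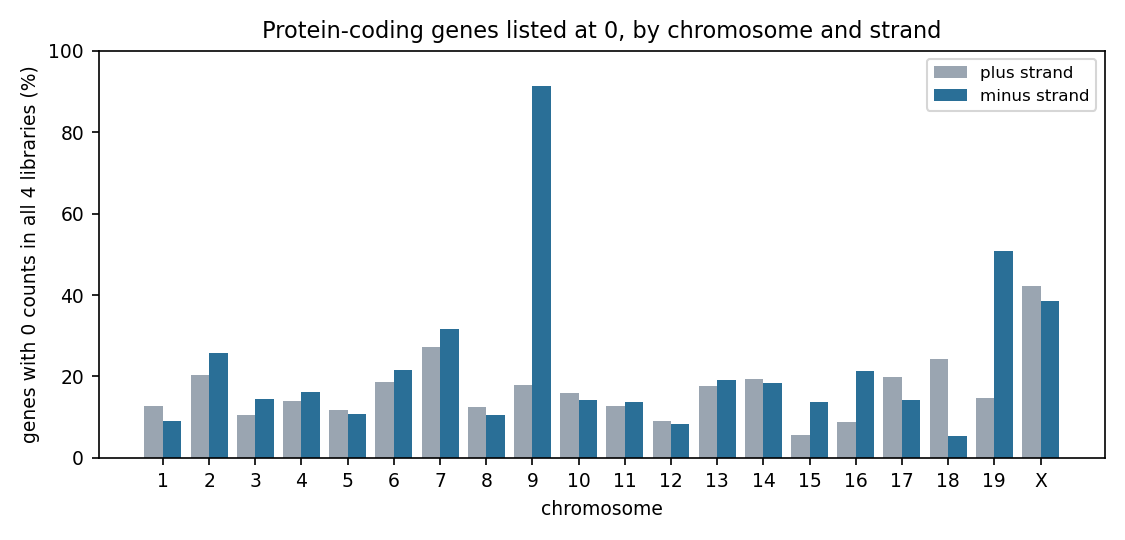
Share of protein-coding genes with 0 counts in all 4 libraries, in percent, by chromosome and strand. The minus strand of chromosome 9, where Smad6 lies, stands at 91.3%, against 17.9% for its plus strand, and the minus strand of chromosome 19 stands at 50.7%.

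The Id genes showed no common direction. Id1 had 56 and 160 counts with vehicle and 160 and 463 with dexamethasone, or 3.0 and 4.22 against 5.34 and 4.96 CPM. Both treated libraries were higher than both controls. The log2 fold change was 0.50 (SE 0.267), with a 95% interval from -0.21 to 1.21, an edgeR unadjusted p of 0.125 and an adjusted p of 1.0. The log2 difference was 0.82 within number 1 and 0.23 within number 2, and the pooled value was 0.29 without vehicle replicate 1, the library with the lowest level, and 0.78 without vehicle replicate 2.

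Id2 was carried by a single library. It had 99 counts in vehicle replicate 1 (exact 95% Poisson interval 80.5 to 121), 26 in vehicle replicate 2 (17 to 38.1), 10 in dexamethasone replicate 1 (4.80 to 18.4) and 66 in dexamethasone replicate 2 (51.0 to 84.0), where the intervals cover counting error only. That is 5.31, 0.685, 0.334 and 0.707 CPM. Vehicle replicate 1 was 7.75 times as high as vehicle replicate 2, and the other three libraries lay under 1 CPM. The log2 fold change of -2.43 (SE 1.07, edgeR adjusted p 0.989) became -0.34 without vehicle replicate 1. Within number 1 the log2 difference was -3.82, and within number 2 it was 0.04.

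Id3 had 27 and 50 counts with vehicle and 19 and 151 with dexamethasone, or 1.45 and 1.32 against 0.634 and 1.62 CPM. The controls lay between the treated libraries, which differed 2.55-fold from each other. The log2 fold change was -0.26 (SE 0.534, edgeR adjusted p 1.0), with a 95% interval from -1.67 to 1.16, and it turned to 0.23 without dexamethasone replicate 1. Within number 1 the log2 difference was -1.14, and within number 2 it was 0.29, of opposite sign.

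Id4 had 5 and 3 counts with vehicle and 10 and 16 with dexamethasone, or 0.268 and 0.0791 against 0.334 and 0.171 CPM. This is too few to test after the filter, and in vehicle replicate 2 it is the level of 3 counts, the limit that a count of 0 would allow. A330033J07Rik and Gm49291 overlap Id4 on the opposite strand in GENCODE M21, so that without a stated strand setting some of these few reads may not be its own.

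Relative to Id1, the other Id genes varied widely within groups. Id2 stood at 1.77 and 0.163 counts for each Id1 count with vehicle, and at 0.0625 and 0.143 with dexamethasone. Vehicle replicate 1 was thus the only library in which Id2 had more counts than Id1, and the exact permutation p of the log2 ratio was 0.333 (two-sided), the smallest possible. Id3 stood at 0.482 and 0.313 against 0.119 and 0.326, with overlapping groups and an exact permutation p of 0.667 (two-sided).

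The receptor genes were the steadiest of the set and the most abundant in CPM, a measure that does not correct for gene length. Bmpr1a, the gene of a type I receptor that phosphorylates the BMP Smads, had 5363 and 9825 counts with vehicle and 8307 and 23633 with dexamethasone, or 288 and 259 against 277 and 253 CPM. These 4 values interleave by group. The log2 fold change was -0.04 (SE 0.134), with a 95% interval from -0.40 to 0.31 (edgeR adjusted p 1.0), and its sign turned without vehicle replicate 1 (0.03) and without dexamethasone replicate 2 (0.02). Bmpr2, the gene of the type II receptor that activates it, had 3373 and 6277 counts with vehicle and 4709 and 14963 with dexamethasone. Its levels were 181 and 165 against 157 and 160 CPM, so the treated libraries were lower without overlap, but by little. The log2 fold change was -0.13 (SE 0.122, edgeR adjusted p 1.0) and its 95% interval ran from -0.45 to 0.20. Without vehicle replicate 1 it was -0.06. Within numbers 1 and 2 the log2 differences were -0.05 and -0.03 for Bmpr1a and -0.20 and -0.05 for Bmpr2. Both 95% intervals include 0, and with 2 libraries a group changes of the receptor genes within them are not excluded. Bmpr2 had 0.629 and 0.639 counts for each Bmpr1a count with vehicle and 0.567 and 0.633 with dexamethasone (exact permutation p 0.667, two-sided).

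**Figure D4:**
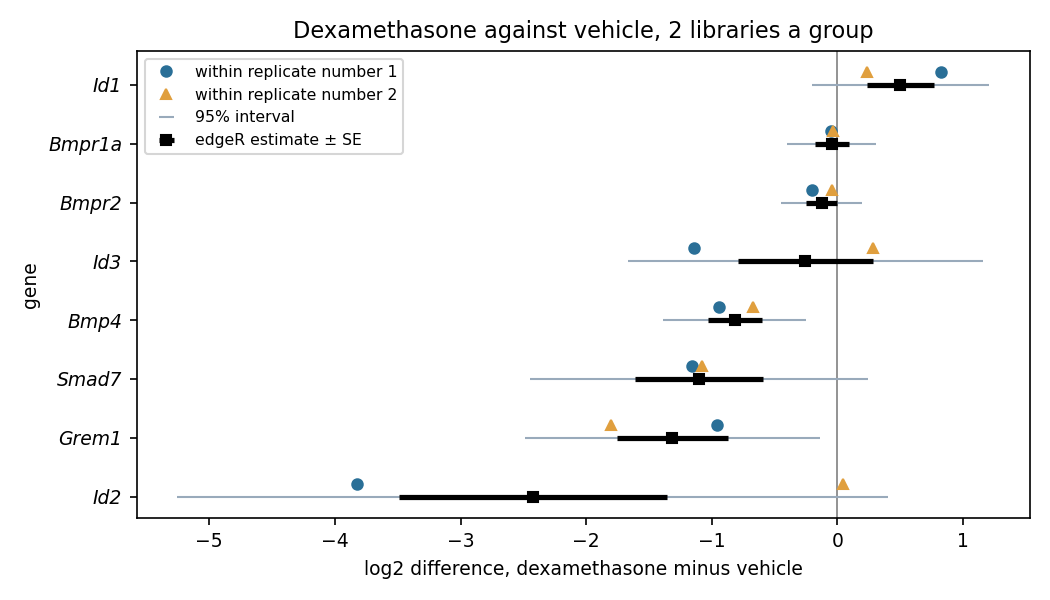
Log2 difference, dexamethasone minus vehicle, of the 8 tested genes: squares are edgeR estimates with SE (thick bars) and 95% intervals (thin lines), and circles and triangles are the differences within replicate numbers 1 and 2. The differences within the numbers lie close together for Smad7 (-1.16 and -1.08) and Bmpr1a, and far apart for Id2 (-3.82 and 0.04).

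Per length, in RPKM (CPM divided by the kilobases of annotated exon), the order of the vehicle levels was Bmpr1a (45.3 and 40.8), Bmpr2 (10.1 and 9.20), Smad7 (4.24 and 8.52), Bmp4 (4.18 and 3.34), Id1 (2.59 and 3.63), Grem1 (1.88 and 1.54), Id2 (2.18 and 0.281), Id3 (0.809 and 0.736) and Id4 (0.0697 and 0.0205). The libraries of Bmp4 and Id1, of Grem1 and Id2, and of Id2 and Id3 overlapped, so those neighbours did not differ beyond their spread. Smad7 and Bmp4 were barely apart, at 4.24 and 4.18 in vehicle replicate 1, so their order is not settled either. With dexamethasone Id1 (4.60 and 4.27 RPKM) came next after Bmpr2, above Smad7 (1.89 and 4.02) and Bmp4 (2.17 and 2.09), without overlap with either. Whether the counts cover exons alone is not given in the sources used here. By length of the whole gene, introns included, only Bmp4 and Id4 kept their places among the 9 and Id1, a short gene, came first.

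Next, 53 other genes of the pathway were examined, of which 35 were abundant enough to test. By edgeR 0 were called in either direction. At an unadjusted p under 0.05, 3 were higher (Bmp8a, Nbl1 and Fstl3) and 2 lower (Acvr1 and Hes1), beside 4.09% and 1.69% of all genes. The groups did not overlap in 9 with higher and 9 with lower values in the dexamethasone libraries, beside 15% and 12.9% of all genes, and the median log2 fold change was -0.0066, against -0.0016 over all genes.

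Among 12 further ligand genes, 8 were too low to test, Bmp2 with at most 1 count a library. Of the 4 others, 3 were higher in both treated libraries than in both controls, a pattern held by 15% of all genes. Bmp8a, the gene of a BMP ligand, stood at 1.39 and 2.56 CPM with vehicle and 6.61 and 7.78 with dexamethasone, 3.57-fold higher, a log2 fold change of 1.84 (SE 0.360, edgeR unadjusted p 0.00487, adjusted p 0.292). The adjusted p was 0.00235 by the Wald test of DESeq2 and 0.002 by edgeR's likelihood ratio test, both past the threshold, with a range of 0.00155 to 0.547 over all alternatives. Bmp8b is a close copy of Bmp8a, and how reads that match both were counted is not given in the sources used here. Gdf6 stood at 1.5 and 4.77 against 6.87 and 13.1 CPM (log2 fold change 1.64, SE 0.632, edgeR adjusted p 0.884), and its log2 fold change ran from 1.07 without vehicle replicate 1 to 2.74 without vehicle replicate 2. Bmp6 stood at 3.43 and 2.82 against 10.5 and 3.50 CPM (1.15, SE 0.579, adjusted p 1.0), a difference that was 0.17 without dexamethasone replicate 1. Gdf6 and Bmp6 were singled out after their values were seen. Bmp4, at -0.82, lay on the other side of 0.

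Of the 8 tested receptors and co-receptors, 4 had lower values in both treated libraries, beside 12.9% of all genes, and none had higher ones in both, beside 15%. Acvr1, the gene of another BMP type I receptor, stood at 147 and 167 CPM with vehicle and 108 and 123 with dexamethasone, a log2 fold change of -0.44 (SE 0.145, edgeR unadjusted p 0.0317, adjusted p 0.714). Rgma, the gene of a BMP co-receptor, had the largest log2 fold change of this role, -0.51 (SE 0.214, adjusted p 0.949), with 75.4 and 104 against 57.0 and 69.2 CPM. Without vehicle replicate 2 it was -0.25, smaller than that of Acvr1 in the same fit (-0.35). The 4 signalling Smads lay between -0.15 (Smad9, SE 0.218) and 0.12 (Smad1, SE 0.119), none past the threshold.

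Among 8 tested antagonist genes, Nbl1 and Fstl3 were higher in both treated libraries, beside 15% of all genes. Nbl1, which like Grem1 encodes a member of the DAN family, stood at 15.9 and 19.6 CPM with vehicle and 29.3 and 32.3 with dexamethasone (log2 fold change 0.79, SE 0.175, edgeR unadjusted p 0.00794, adjusted p 0.355). Fstl3, the gene of a follistatin-like protein, stood at 4.51 and 4.01 against 5.87 and 7.56 CPM (0.66, SE 0.238, adjusted p 0.800).

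Of the 6 tested brakes inside the cell or at its surface, Ski, the gene of a Smad corepressor, had the largest value, -0.46 (SE 0.428, edgeR adjusted p 1.0), with overlapping groups. It was 0.04 without vehicle replicate 2, -0.08 without dexamethasone replicate 1, -0.83 without vehicle replicate 1 and -0.98 without dexamethasone replicate 2. Of 5 tested target genes, 3 lay above 0 and 2 below, with a median log2 fold change of 0.03. The groups did not overlap in 1 with higher values (Msx1) and 2 with lower values (Hes1 and Runx2), beside 15% and 12.9% of all genes. Msx1 stood at 0.536 and 0.659 CPM with vehicle and 1.03 and 1.04 with dexamethasone (0.78, SE 0.363). The value of Runx2 was -0.48 (SE 0.232). Hes1, a repressor that BMP and Notch can induce, stood at 6.92 and 5.09 CPM with vehicle and 2.90 and 3.05 with dexamethasone. Both treated libraries were lower, with a log2 fold change of -1.0 (SE 0.260, edgeR unadjusted p 0.0142, adjusted p 0.479). In the same libraries Id1, also a BMP target, lay on the other side of 0 at 0.50.

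**Figure D5:**
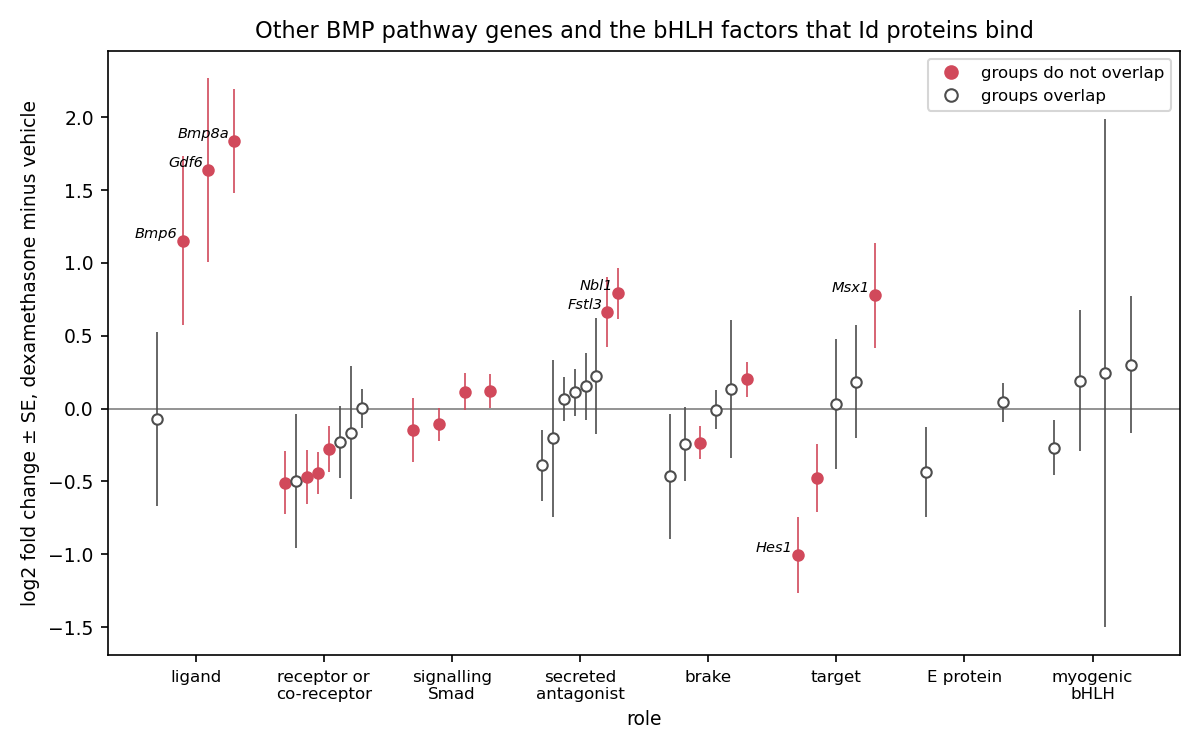
Log2 fold change with SE, dexamethasone minus vehicle, of 35 other BMP pathway genes and 6 bHLH factors that Id proteins bind or act on, by role; filled red points are genes whose groups do not overlap. Bmp8a, Gdf6 and Bmp6 lie above 1. Of the 8 receptors and co-receptors 7 lie below 0, as do 6684 of all 13285 genes tested, and in 4 of the 8 the groups overlap. None of the genes shown passed an adjusted p of 0.05 by edgeR's quasi-likelihood test on group alone.

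The factors on which Id proteins act were examined last. Of 7 E protein and myogenic bHLH genes 6 were tested, and by edgeR 0 were called and 0 had an unadjusted p under 0.05. In all 6 the groups overlapped, as they did in 72.1% of all genes. The median log2 fold change was 0.12, and it ran from -0.25 to 0.43 when single libraries were left out. Tcf3, the gene of the E proteins E12 and E47, had the largest value among the E proteins, -0.43 (SE 0.309), at 37.8 and 54.2 against 26.2 and 41.9 CPM. It was -0.15 without vehicle replicate 2 and -0.14 without dexamethasone replicate 1, but -0.67 without vehicle replicate 1 and -0.82 without dexamethasone replicate 2. Myf5, a myogenic factor of myoblasts, had the largest among the myogenic genes, 0.30 (SE 0.471), at 1.98 and 1.05 against 2.27 and 1.45 CPM, and its sign turned without vehicle replicate 2 (-0.11) or dexamethasone replicate 1 (-0.05).

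Markers of other cell states moved with the groups in part. The 6 markers of unfused or cycling myoblasts summed to 56.6 and 61.3 CPM with vehicle and 42.0 and 49.9 with dexamethasone. The lower sum came from Pax7 alone, the gene of a satellite cell factor, at 32.0 and 39.0 against 17.9 and 22.9 CPM (log2 fold change -0.80, SE 0.201, edgeR adjusted p 0.456). The other 5 had log2 fold changes between 0.07 (Mki67) and 0.30 (Myf5) with overlapping groups, and none of the 6 passed the threshold. The 4 fibroblast markers summed to 11.4 and 9.17 CPM against 13.1 and 15.2, with Lum and Thy1 at 0 in every library. The other 2 lay on opposite sides of 0: Pdgfra, a receptor gene of mesenchymal cells, at a log2 fold change of 1.04 (SE 0.278, edgeR adjusted p 0.503), and Dcn, the gene of decorin, at -0.51 (SE 0.242, adjusted p 1.0). Adipocyte markers summed to 90.4 and 61.8 against 75.4 and 58.9 CPM, nearly all of it Pparg, and the defining Adipoq had at most 7 counts. The part of these cell states in the lower Bmp4, Grem1 and Smad7 values was not tested.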

How the data were processed

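The deposited table holds raw counts, with 1 row per gene and 1 column per library. Per the submitters' processing notes, TopHat2 2.0.13, SAMtools 1.1, HTSeq 0.6.1, DESeq2 1.18.1 and the mm9 build were used; annotation, strand setting and whether introns were counted are not given in the sources used here. Groups came from the sample titles. Of 23333 rows, 51 that repeat an earlier gene and its counts were used once. After filterByExpr (minimum count 10, minimum total 15) 13285 genes were tested with edgeR 4.0.16 (R 4.3.3), the quasi-likelihood test, two-sided, on group alone, with TMM factors of 0.924 to 1.08, Benjamini-Hochberg adjustment over all genes and a threshold of 0.05. CPM values are TMM-scaled, and log2 differences within a replicate number have a prior count of 2. The SE of an edgeR estimate was derived from the test, as the absolute log2 fold change divided by the square root of its F statistic. The 95% intervals use that SE and the test's degrees of freedom (2 residual, 2.56 prior). Exon and gene lengths are from GENCODE M21 (GRCm38), matched on Ensembl identifiers.

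Alternatives covered scaling (size factors of DESeq2, upper quartile, none), filters, other tests (DESeq2 1.42.0, limma-voom in limma 3.58.1, edgeR's likelihood ratio), a block for the replicate number, an adjusted p under 0.1, and leaving out each library. Leaving out libraries for the count ratios was added after seeing the data. The genes and lists were chosen with earlier results of these data known. Named genes are the 10, every list gene past the threshold, the largest absolute log2 fold change per role, and Fkbp5. Those with an unadjusted p under 0.05 and Gdf6, Bmp6, Msx1, Runx2 and Pax7 were added after their values were seen. Smad1 and single cell type markers such as Mymk, Pdgfra and Dcn are also named outside these rules. Hfe2 is listed as Hjv, and 1 gene of the pathway list is not reported here and was left out of its counts.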

Additional observations from a re-analysis of the deposited data

How the results depend on the processing

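Of the 8 tested Id and BMP-SMAD genes, 98 values under alternatives kept their direction and side of the threshold, 3 became stronger (all under a block for the replicate number) and 3 reversed. The reversals were in Bmpr1a (0.0341 without vehicle replicate 1 and 0.0204 without dexamethasone replicate 2, in a range from -0.117) and Id3 (0.229 without dexamethasone replicate 1, in a range from -1.12). Of the other named genes, Ski ran from -0.984 to 0.0352 (without vehicle replicate 2), and Myf5 from -0.112 (without vehicle replicate 2; -0.0502 without dexamethasone replicate 1) to 0.80. Against 5 genes called higher and 0 lower, the counts were 236 and 53 with DESeq2's Wald test, 243 and 45 with the likelihood ratio test, 0 and 0 with limma-voom (540 higher at an unadjusted p under 0.05), and 23 higher with no filter. DESeq2 and the likelihood ratio test each called 1 pathway gene higher. Fits that left out a library called 4 to 63 genes higher and 0 to 8 lower; there the lone library of a group is assumed to vary like the other group. The pathway median was -0.0754 with no filter, and leaving out a library gave -0.0836 (dexamethasone replicate 1) to 0.0241 (vehicle replicate 1). The bHLH median was -0.00757 with limma-voom and ran from -0.252 to 0.433. By gene span, 2 of 9 genes kept their place in the order of levels. The cause was not tested.

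The labels do not tie a replicate number to a shared day or batch, and 2 pairs cannot establish pairing; differences between the numbers correlated at 0.734 between the groups. With the replicate block 913 genes were higher and 768 lower. Of the 8 genes, 3 were then called lower: Smad7 (log2 fold change -1.11, adjusted p 0.000374), Bmp4 (-0.79, 0.00887) and Grem1 (-1.44, 0.00777). The block called 4 pathway genes higher and 11 lower, and 1 bHLH gene, Tcf3, lower. The higher ones were Bmp8a, Gdf6, Nbl1 and Fstl3, and the lower ones included Acvr1, Rgma, Hes1 and Ski. Only 1 residual degree of freedom is left in that fit.

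Id2, Id3 and Id4 had 10, 19 and 3 counts in their smallest library, which limits their precision. Id4 was fitted only with no filter (log2 fold change 0.62, adjusted p 1).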
